A study of Homo sapiens with 12 samples.

Results

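The tripartite motif (TRIM) genes were taken as all genes whose symbol is TRIM followed by digits only. This gave 66 genes of the 58288 gene identifiers in the deposited count table, 1 identifier per symbol, and all 66 are annotated as protein coding. Of these, 39 had reads enough to be tested and 27 had not. RNA was sequenced from MV3, an established human melanoma line from a lymph node metastasis, in 4 groups of 3 libraries. Cells of all groups were grown with 10% serum. They spent 3 h in RPMI with 1% serum and then 24 h in 1 of 4 media, also with 1% serum. Ctrl cells received fresh RPMI. The other groups received medium in which macrophages had grown, derived from THP-1 monocytes by PMA only (M0), or by PMA and then with LPS and IFNγ (M1) or with IL4 and IL13 (M2). No group carried a genetic change, and the macrophages were in every case the derivatives of 1 cell line. Ctrl medium had met no cells, so a difference from Ctrl includes conditioning by any THP-1 cell, and carry-over of PMA, LPS or the cytokines was not measured. Whether replicates were separate cultures is not stated in the labels, so each p reflects only the spread among these libraries, which may be technical.

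TRIM proteins carry a RING finger, 1 or more B-boxes and a coiled coil, followed by a variable C-terminal part that picks the target, and most act as E3 ubiquitin ligases. Interferons induce several of them, and these either restrict viruses directly or build ubiquitin chains on the sensors and adaptors of innate immunity. Other branches of the family work in the nucleus as transcriptional corepressors, bind microtubules or muscle filaments through a COS box, or bind RNA and partner proteins through NHL repeats. In many cell types, melanoma cells included, the corepressor TRIM28 helps to keep retroelements silent.

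Libraries held 21788397 to 42921242 counts, and TRIM genes took 0.236% to 0.241% of them in Ctrl, 0.261% to 0.265% in M0, 0.271% to 0.276% in M1 and 0.262% to 0.269% in M2. A count of 0 allows up to 3 counts, which is 0.0699 to 0.138 CPM (counts scaled to the library total) in a single library, for counting error only. Replicate 2 of M2 stood apart, since 3759 genes had reads only there, where each of the other 11 libraries had 160 to 453 such genes, and 51 TRIM genes had a read there against 41 to 46 elsewhere. The strand setting of the counting is not given, so reads cannot be told apart from those of an exon on the opposite strand. This held for TRIM13 (DLEU2), TRIM14 (NANS), TRIM37 (PPM1E), TRIM39 (HCG18), TRIM59 (SMC4), TRIM66 (RPL27A) and TRIM25 (DGKE). Less well described overlapping genes set the same limit for TRIM8, TRIM11, TRIM16, TRIM38, TRIM41, TRIM47, TRIM52 and TRIM62. How reads on exons shared on the same strand were counted is not given either. Such exons exist in TRIM4, TRIM5, TRIM6, TRIM11, TRIM13, TRIM16, TRIM22, TRIM25, TRIM39 and TRIM59, and in the untested TRIM34, TRIM60, TRIM61 and TRIM73. Of 8 melanocyte markers only MITF was tested, TYR and S100B had no read, and the summed level of the 8 was 0.837 to 1.51 CPM in Ctrl, 3.01 to 3.37 with M0, 1.88 to 2.43 with M1, and 2.16 to 2.32 with M2, so the line showed almost none of the pigment-cell markers. Of 6 markers of dedifferentiated melanoma, 5 were tested, and NGFR had 5 reads in all. Their summed level, of which AXL was the largest part, was 2893 to 3786 CPM in Ctrl and 3000 to 3061 with M0. It was 2296 to 2407 with M1 and 3099 to 3254 with M2. In M1 against M0, 2 were higher (all genes 25.5%), WNT5A the most, and 2 lower (26.7%), AXL the most. Of 14 macrophage markers only CD33 was tested and AIF1 had no read. Their summed level was 1.47 to 1.72 CPM in Ctrl, 1.21 to 1.30 with M0, 0.938 to 1.39 with M1, and 0.966 to 1.38 with M2, highest in the group that met no macrophage medium.

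Of the 27 TRIM genes not tested, 12 had no read in any library and 15 had at least 1. TRIM7, a ligase that binds glycogenin, came closest to the threshold for testing with 2 to 12 reads per library. TRIM34, the neighbour of TRIM5 and TRIM22, had 5, 4 and 1 reads in Ctrl, 0, 0 and 1 with M0, 1, 0 and 2 with M1, and 1, 0 and 0 with M2. The 12 genes of the primate-expanded and testis group in the table were nearly silent, since only TRIM52 was tested. The muscle ligase TRIM63, the stem-cell gene TRIM71 and the neuronal genes TRIM9 and TRIM67 did not reach 5 reads in any library. Of the genes just inside the threshold, TRIM6 had 3 to 75 reads per library and TRIM22 had 1 to 768.

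Levels of different genes were compared as CPM per kb of merged exons. In Ctrl they ran from 0.0161 for TRIM22 to 197 for TRIM28, with a median of 2.97 over the 39 genes tested. TRIM28 reached 197 ± 12.1 (SD, n = 3) and TRIM44, which lacks the RING finger and carries a zinc finger of the deubiquitinase type, 36.0 ± 0.946. TRIM14, TRIM21 and TRIM25 followed with 16.6 ± 0.675, 15.8 ± 0.576 and 14.0 ± 0.372, and the first pair of these neighbours lay within their summed SDs. In M1 medium the order was TRIM28 at 109 ± 9.73, TRIM25 at 66.3 ± 2.10 and TRIM21 at 37.4 ± 1.31 CPM per kb. The mean was highest in M1 for 19 of the 39 genes, in Ctrl for 12, in M0 for 5 and in M2 for 3, and it was lowest in Ctrl for 18. TRIM22, tested only through its M1 libraries, is among the 19. The same shares over all genes tested were not computed, so these counts are no trait particular to the family. The plot of levels per kb shows the order of the groups for each gene.

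**Figure D1:**
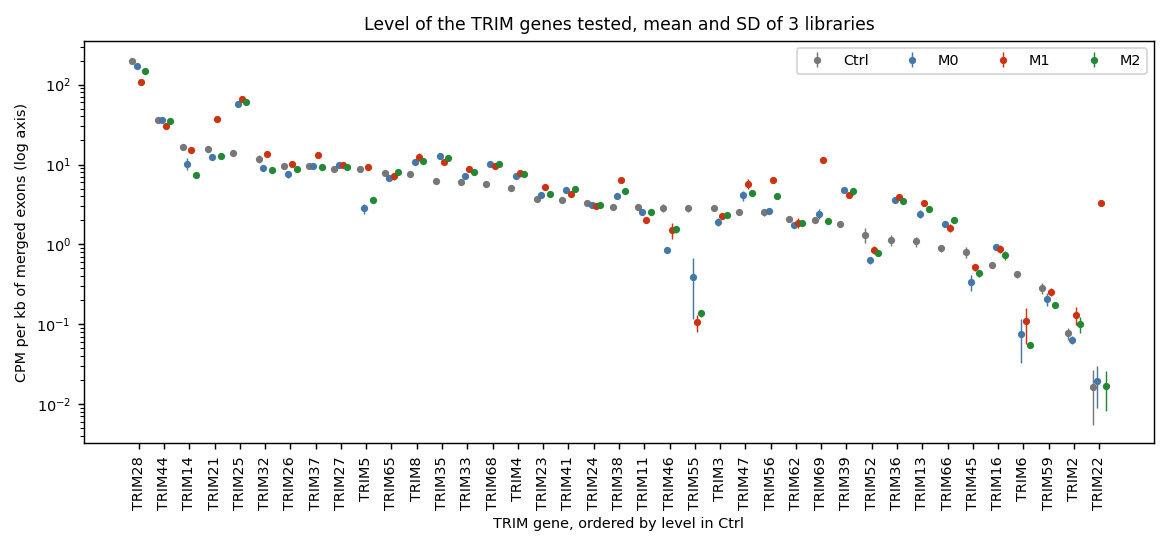
Level of each of the 39 TRIM genes tested in CPM per kb of merged exons (log axis), mean and SD of 3 libraries per medium, ordered by the Ctrl level. TRIM28 stood highest in every medium, and TRIM22 lay between 0.0161 and 0.0197 in Ctrl, M0 and M2 and at 3.26 in M1.

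The design asks mainly how M0, M1 and M2 media differ. By edgeR's quasi-likelihood test with Benjamini-Hochberg adjustment over all 14088 genes tested, 28 of the 39 TRIM genes differed among the 3 conditioned media (71.8%), and 56.6% of all genes tested did. In M1 against M0, 26 TRIM genes passed (66.7%, where 52.2% of all genes passed), 21 higher, where 25.5% of all genes were higher, and 5 lower, where 26.7% were lower. Their median log2 fold change was 0.29 and that of all genes -0.01. In M1 against M2, 17 passed (43.6% against 32.5% of all genes), 12 higher (all genes 15.9%) and 5 lower (16.6%), with medians of 0.16 and -0.03. TRIM22 had reads enough to be tested only through its 3 M1 libraries, so it had to be higher there. Its place in the 28, in the 26 and 21, in the 17 and 12, and in these medians is a description only. In M2 against M0 only 8 passed, 20.5% against 25.2% of all genes, 5 higher (12.5%) and 3 lower (12.7%), with medians of 0.03 and 0.00. This count was 4 without M0 replicate 3 or M2 replicate 3 and 5 without M2 replicate 2, when 11.1%, 13.2% and 13.5% of all genes passed, and the 17 of M1 against M2 became 11 without M2 replicate 1, when 23.3% of all genes passed. These bulk libraries cannot tell fewer cells with a transcript from less of it per cell. The comparisons share libraries, so the M0, M1 and M2 values of 1 gene are given side by side and not as independent results.

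**Figure D2:**
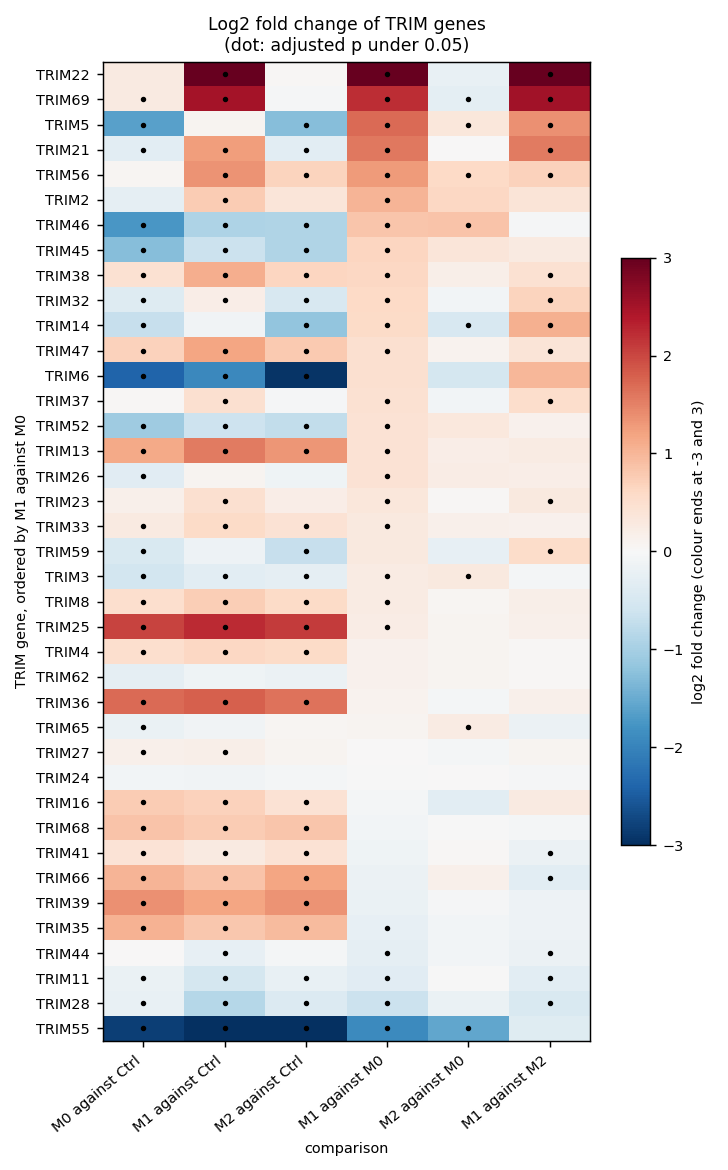
Log2 fold change of the 39 TRIM genes tested (rows, ordered by M1 against M0) in the 6 comparisons (columns), with a dot where the adjusted p was under 0.05. TRIM69 was high in each comparison of M1, and TRIM25, TRIM36, TRIM39 and TRIM13 were high against Ctrl in all 3 conditioned media. TRIM22 was also high in each comparison of M1, but it entered the fit only through M1, so its dots there are a description only.

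Interferon-linked members made up most of the large differences in M1 medium. Of the 11 genes on that list 10 were tested. In M1 against M0, 9 were higher (all genes 25.5%), none was lower (26.7%) and TRIM6 did not pass, with a median log2 fold change of 0.95. In M1 against M2, 7 were higher (15.9%) and none lower (16.6%), with a median of 1.03. TRIM22 passed the filter on low counts only through its 3 M1 libraries, so it had to be higher there, and its place in these counts and medians is a description only. None of these 9 and 7 calls was lost under any alternative analysis or when any 1 library was left out. For TRIM22 this adds nothing, because its direction was fixed by how it entered the fit. In M2 against M0, 2 were higher (TRIM5 and TRIM56), 2 lower (TRIM14 and TRIM69) and 6 did not pass, with a median of 0.05. Against fresh medium the list was mixed. In M0 against Ctrl, 3 were higher (all genes 31.1%) and 5 lower (30.6%), TRIM5, TRIM6, TRIM14, TRIM21 and TRIM26. In M1 against Ctrl, 6 were higher (35.2%), TRIM22 among them, 1 was lower (35%), and TRIM5, TRIM14 and TRIM26 did not pass. The list was drawn up with earlier results of these data known, so its direction is a description. At least 2-fold higher in M1 than in M0 were 6 TRIM genes with TRIM22 included (5.98% of all genes), of which TRIM22, TRIM69, TRIM5, TRIM21 and TRIM56 are interferon-linked and TRIM2 is not. At least 2-fold higher in M1 than in M2 were 5 (3.53%), TRIM22, TRIM69, TRIM21, TRIM5 and TRIM14, and none was 2-fold lower (1.31%). In M2 against M0 none was at least 2-fold higher (1.52%) and only TRIM55 was lower by that much (0.703%).

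TRIM22 (ENSG00000132274, chr11:5689689-5737089, + strand, GRCh38) encodes an interferon-inducible antiviral ligase. Its level was 0.160, 0.10 and 0.0313 CPM in Ctrl, 0.169, 0.0466 and 0.140 with M0, 19.5, 21.1 and 18.3 with M1, and 0.163, 0.0709 and 0.0715 with M2. In reads this was 11 over the 3 Ctrl libraries, 10 over M0, 2097 over M1 and 10 over M2. The gene was thus near the floor in 9 libraries and clearly counted only in the 3 M1 libraries. The fitted log2 fold change was 7.25 in M1 against M0 and 7.46 in M1 against M2, and the other groups of 3 overlapped one another. Both values are given as descriptions with no test, because the gene entered the fit through M1 alone and their size rests on 10 reads in each of M0 and M2.

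TRIM69 (chr15:44728988-44767829, + strand) encodes an interferon-stimulated ligase that associates with microtubules. Its level was 17.5, 19.1 and 19.7 CPM in Ctrl, 21.2, 20.1 and 26.1 with M0, 104, 104 and 108 with M1, and 19.3, 17.7 and 17.9 with M2. All 3 M1 libraries lay far above the other 9. TRIM69 rose 4.66-fold in M1 against M0 (log2 fold change 2.22, SE 0.09, adjusted p = 3.29e-11) and 5.74-fold against M2 (2.52, SE 0.09, adjusted p = 7.04e-12). It was lower in M2 than in M0 by a small margin (log2 fold change -0.30, SE 0.09, adjusted p = 0.0277), and without M0 replicate 3, the highest M0 library, that value was -0.17 (adjusted p = 0.194).

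TRIM5 (chr11:5663557-5938619, - strand) encodes a factor that recognises the capsid of incoming retroviruses. Its level was 41.0, 41.9 and 42.5 CPM in Ctrl, 15.6, 13.6 and 11.7 with M0, 43.2, 42.8 and 46.7 with M1, and 17.5, 17 and 17.2 with M2. The M0 and M2 libraries were low, and M1 libraries sat just above those of Ctrl. TRIM5 fell by 1.62 on the log2 scale in M0 against Ctrl (SE 0.09, adjusted p = 6.34e-10) and by 1.28 in M2 against Ctrl (SE 0.09, adjusted p = 5.39e-09). In M1 against M0 it was higher by 1.70 (SE 0.09, adjusted p = 9.05e-10), while M1 against Ctrl gave 0.08 (adjusted p = 0.386). M2 exceeded M0 by 0.34 (adjusted p = 0.0154), a call that was lost without M0 replicate 3 (0.24, adjusted p = 0.0866) or M2 replicate 3 (0.34, adjusted p = 0.0505).

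TRIM21 (chr11:4384897-4393696, - strand) encodes a cytosolic antibody receptor that sends antibody-coated viruses to the proteasome. Its level was 30.7, 29.3 and 31.5 CPM in Ctrl, 24.3, 22.7 and 25.8 with M0, 72.5, 69.6 and 74.6 with M1, and 23.5, 25.6 and 24.6 with M2. M1 libraries stood above all others, and M0 and M2 overlapped below Ctrl. The log2 fold change was 1.57 (SE 0.07, adjusted p = 1.14e-10) in M1 against M0 and 1.56 (SE 0.07, adjusted p = 1.13e-10) in M1 against M2. Against Ctrl, TRIM21 fell by 0.33 in M0 (adjusted p = 0.000864) and rose by 1.24 in M1 (adjusted p = 3.05e-10).

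TRIM56 (chr7:101085439-101097967, + strand) encodes an antiviral ligase of the nucleic acid sensing pathways. Its level was 26.0, 31.3 and 27.7 CPM in Ctrl, 31.7, 28.0 and 29.1 with M0, 70.7, 79.5 and 66.4 with M1, and 43.1, 44.5 and 46.7 with M2. Ctrl and M0 overlapped, M2 lay above both and M1 above M2. TRIM56 was higher by 1.28 in M1 against M0 (SE 0.09, adjusted p = 1.58e-08), by 0.59 in M2 against M0 (SE 0.09, adjusted p = 0.000831) and by 0.69 in M1 against M2 (adjusted p = 1.57e-05). Among the 8 TRIM genes called in M2 against M0, TRIM14, TRIM46 and TRIM56 kept their call when any 1 library of the comparison was left out.

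TRIM14 (chr9:98069275-98119212, - strand), which lacks a RING finger, encodes a mitochondrial adaptor of RNA sensing. Its level was 86.9, 94.2 and 91.4 CPM in Ctrl, 57.5, 46.0 and 65.5 with M0, 81.9, 88.8 and 80.7 with M1, and 42.5, 38.9 and 39.3 with M2. M2 was lowest without overlap with M0, and Ctrl and M1 overlapped at the top. The log2 fold change was 1.06 (SE 0.10, adjusted p = 7.33e-07) in M1 against M2, 0.57 (adjusted p = 0.000176) in M1 against M0 and -0.49 (SE 0.10, adjusted p = 0.00346) in M2 against M0. With M0 replicate 3 and M2 replicate 2 both left out the last value was -0.34 (adjusted p = 0.0809).

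TRIM38 (chr6:25962802-25991226, + strand) encodes a ligase that tunes sensor and NF-kB signalling. Its level was 27.7, 29.5 and 26.5 CPM in Ctrl, 36.6, 39.5 and 39.4 with M0, 59.4, 60.6 and 58.3 with M1, and 43.8, 44.5 and 42.1 with M2. No 2 groups overlapped, in the order Ctrl, M0, M2 and M1, although M2 against M0 missed the threshold (0.17, adjusted p = 0.0601). TRIM38 was higher by 0.63 in M1 than in M0 (adjusted p = 1.65e-06) and by 1.09 in M1 than in Ctrl (adjusted p = 7.13e-10).

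TRIM26 (chr6:30184455-30213427, - strand), a ligase of the interferon-beta pathway, showed a small difference. Its level was 44.4, 40.5 and 41.4 CPM in Ctrl, 30.6, 37.4 and 31.3 with M0, 44.7, 43.1 and 45.4 with M1, and 35.9, 40.8 and 39.2 with M2. Only the M0 libraries lay below the Ctrl range throughout. TRIM26 was higher by 0.43 in M1 than in M0 (adjusted p = 0.000494), and M1 against Ctrl gave 0.08 (adjusted p = 0.409).

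TRIM6 (chr11:5596109-5612958, + strand), which builds unanchored ubiquitin chains that activate IKBKE, was the 1 tested interferon-linked gene that M1 medium did not raise over M0. Its level was 1.71, 1.81 and 1.5 CPM in Ctrl, 0.472, 0.140 and 0.280 with M0, 0.380, 0.256 and 0.655 with M1, and 0.217, 0.213 and 0.215 with M2. Every conditioned library was below every Ctrl library. TRIM6 fell by 2.41 in M0 (SE 0.33, adjusted p = 1.32e-05), by 1.93 in M1 (SE 0.29, adjusted p = 2.33e-05) and by 2.94 in M2 (SE 0.34, adjusted p = 1.82e-06), each against Ctrl. These folds rest on 25 reads over M0, 47 over M1 and 20 over M2, against 177 over Ctrl, and limma on the deposited log2 values gave -1.57 for M0 and -1.72 for M2.

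**Figure D3:**
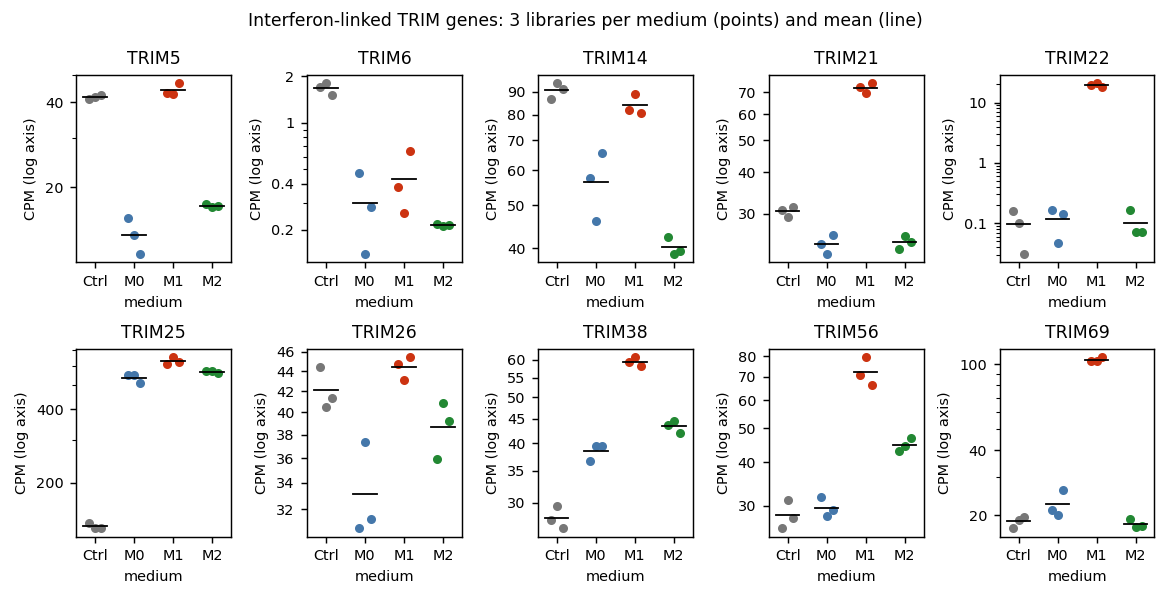
CPM (log axis, a separate scale per gene) of the 10 interferon-linked TRIM genes tested, by medium, with points for the 3 libraries and a line at their mean. TRIM5, TRIM21, TRIM22, TRIM25, TRIM38, TRIM56 and TRIM69 were highest in M1 without overlap, TRIM5 only just above Ctrl. For TRIM22, which entered the fit only through M1, this is a description only. TRIM5 and TRIM14 were low in M0 and M2, and TRIM25 was high in all 3 conditioned media.

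The start regions of these genes were read from RefSeq promoter windows on GRCh38.p14, which run from 250 bases before to 50 bases after a gene's start. The table held 52 of the 66 members and 28 of the 39 tested. Tested members with no window in it were TRIM4, TRIM8, TRIM11, TRIM13, TRIM22, TRIM24, TRIM27, TRIM28, TRIM35, TRIM45 and TRIM55. Windows were searched on both strands for the core of the interferon-stimulated response element, GAAA, then any 2 bases, then GAAA, the element through which type I interferon factors act. It was found in 3.57% of the 35116 windows of the table and for 4.38% of the genes. The 4.38% covers all genes with a window, tested or not, and no share over tested genes alone was computed. Of the 52 members with a window 9 held it, and of the 28 tested TRIM genes 8 (28.6%): TRIM2, TRIM5, TRIM14, TRIM16, TRIM21, TRIM26, TRIM44 and TRIM69. In M1 against M0, 6 of these were higher, TRIM44 was lower and TRIM16 did not pass, while 11 of the 20 tested genes with a window and no match were higher. The windows of 5 members that were higher in M1 than in M0 are shown 5′ to 3′ on the gene's strand, because they place the match against the start site, and capitals mark the match or 2 overlapping matches.
TRIM5: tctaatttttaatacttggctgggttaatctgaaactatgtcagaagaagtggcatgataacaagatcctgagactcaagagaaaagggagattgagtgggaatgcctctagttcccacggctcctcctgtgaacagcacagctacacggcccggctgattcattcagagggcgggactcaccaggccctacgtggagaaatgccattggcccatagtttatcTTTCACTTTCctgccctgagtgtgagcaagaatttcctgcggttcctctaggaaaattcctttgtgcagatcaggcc
TRIM14: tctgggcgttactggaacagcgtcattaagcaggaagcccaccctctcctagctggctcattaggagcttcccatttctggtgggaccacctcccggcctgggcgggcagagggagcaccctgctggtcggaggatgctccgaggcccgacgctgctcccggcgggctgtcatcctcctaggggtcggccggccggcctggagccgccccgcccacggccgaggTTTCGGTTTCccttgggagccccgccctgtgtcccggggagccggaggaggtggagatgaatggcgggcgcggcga
TRIM21: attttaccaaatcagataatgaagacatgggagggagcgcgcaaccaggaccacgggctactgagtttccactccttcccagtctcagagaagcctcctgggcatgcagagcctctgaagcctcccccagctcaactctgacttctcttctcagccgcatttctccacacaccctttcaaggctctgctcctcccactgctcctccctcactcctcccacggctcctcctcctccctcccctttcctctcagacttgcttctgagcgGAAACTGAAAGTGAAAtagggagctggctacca
TRIM26: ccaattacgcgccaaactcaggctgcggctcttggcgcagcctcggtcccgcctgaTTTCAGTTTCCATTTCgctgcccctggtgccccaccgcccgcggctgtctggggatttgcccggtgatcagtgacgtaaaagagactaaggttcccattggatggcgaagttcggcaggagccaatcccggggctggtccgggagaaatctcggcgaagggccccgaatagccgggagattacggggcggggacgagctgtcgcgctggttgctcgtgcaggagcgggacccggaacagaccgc
TRIM69: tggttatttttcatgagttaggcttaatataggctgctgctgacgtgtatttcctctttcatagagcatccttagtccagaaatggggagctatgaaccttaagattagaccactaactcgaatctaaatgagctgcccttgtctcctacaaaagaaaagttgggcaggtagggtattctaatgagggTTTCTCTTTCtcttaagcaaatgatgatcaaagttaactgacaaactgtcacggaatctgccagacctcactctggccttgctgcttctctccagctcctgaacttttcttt
The matches lay 27 to 18 bases before the start in TRIM5, 26 to 17 before it in TRIM14 and 62 to 53 before it in TRIM69, each on the strand opposite to the gene. In TRIM26 the 2 overlapping matches spanned bases 194 to 179 before the start. In TRIM21 they lay inside the transcript, from position 18 to 33 after the start, on the gene's own strand. The windows belong to chr11:5685025-5685324 (-) for TRIM5, chr9:98119173-98119472 (-) for TRIM14, chr11:4393653-4393952 (-) for TRIM21, chr6:30213357-30213656 (-) for TRIM26 and chr15:44736278-44736577 (+) for TRIM69. A match is a description of the letters and not a site shown to be used. TRIM25 and TRIM56 have windows without a match, and both were higher in M1 than in M0.

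Other elements were searched in the same way and occurred in fewer of the tested TRIM genes. The interferon-gamma-activated site, TTCNNNGAA, was in 7.66% of all windows, for 9.38% of the genes, and in 4 of the 28 tested TRIM genes, TRIM2, TRIM3, TRIM16 and TRIM46, of which 3 were higher in M1 than in M0. The stress element TGATGNAA, bound by CCAAT-enhancer and ATF factors, was in 3.62% of windows, for 4.46% of the genes, and in 1 of the 28, TRIM2.

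Several members lie side by side in the genome. Within gaps of at most 500 kb, 26 of the 66 members formed 9 clusters. The cluster at chr11:5596109-5938619 holds TRIM6, TRIM34, TRIM5 and TRIM22. In M1 against M0 the log2 fold change was 0.48 for TRIM6, which did not pass, and 1.70 for TRIM5. That of TRIM22 was 7.25, a description with no test. Nearby at chr11:4384897-4608259, TRIM21 was higher in M1 than in M0, and TRIM68, a coactivator of the androgen receptor, gave -0.09 (adjusted p = 0.271). In the cluster at chr6:30102897-30343729 beside the MHC genes, only TRIM26 and TRIM39 of 6 members were tested. The readthrough genes TRIM6-TRIM34 and TRIM39-RPP21 share exons with members and had no read in any library. On the same strand, TRIM6-TRIM34 shares 2233 of the 2690 exon bases of TRIM34 and 1158 of the 3947 of TRIM6. TRIM39-RPP21 shares 1246 of the 4226 of TRIM39. How reads on shared bases were counted is not given. A lack of reads for the readthrough genes, or few for TRIM34, therefore need not mean a lack of transcript.

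TRIM25 (chr17:56836387-56914080, - strand), which ubiquitinates the RNA sensor RIG-I and is a cofactor of the antiviral protein ZC3HAV1, had the largest difference between conditioned and fresh medium among the genes that were higher in all 3. Its level was 137, 131 and 131 CPM in Ctrl, 550, 552 and 513 with M0, 612, 651 and 626 with M1, and 574, 576 and 560 with M2. All 9 conditioned libraries were above all Ctrl libraries, and M1 was above M0 and M2 without overlap. The log2 fold change against Ctrl was 2.02 in M0 (SE 0.06, adjusted p = 2.03e-13), 2.24 in M1 (SE 0.06, adjusted p = 3.77e-14) and 2.10 in M2 (SE 0.06, adjusted p = 1.5e-13). Among the conditioned media the differences were small, 0.23 in M1 against M0 (adjusted p = 0.00286) and 0.08 in M2 against M0 (adjusted p = 0.292).

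Against fresh medium the family split both ways. In M0 against Ctrl 31 TRIM genes passed (79.5%, all genes 61.7%), 16 higher (31.1%) and 15 lower (30.6%), with median log2 fold changes of 0.03 for TRIM genes and 0.00 for all genes. In M1 against Ctrl 32 passed (82.1%, all genes 70.2%), 23 higher (35.2%) and 9 lower (35%), with medians of 0.49 and 0.00. In M2 against Ctrl 28 passed (71.8%, all genes 66.5%), 15 higher (34.1%) and 13 lower (32.4%), with medians of 0.05 and 0.02. At least 2-fold higher in M0 than in Ctrl were 6 members (8.36% of all genes), TRIM25, TRIM36, TRIM39, TRIM13, TRIM35 and TRIM66. At least 2-fold lower were another 6 (8.03%), TRIM55, TRIM6, TRIM46, TRIM5, TRIM45 and TRIM52. In M1 against Ctrl, 10 members were at least 2-fold higher (12.7%) and 2 at least 2-fold lower (10.9%), and in M2 against Ctrl 5 were higher (10.4%) and 4 lower (9.32%) by that measure. TRIM22 is among the 32, the 23 and the 10 of M1 against Ctrl. It entered the fit only through its M1 libraries, so its place there is a description only.

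TRIM36 (chr5:115124762-115180546, - strand), TRIM46 and TRIM55 belong to the COS-box branch, which binds the cytoskeleton, and they moved in opposite directions. TRIM36, a ligase that associates with microtubules, was at 7.47, 7.50 and 5.63 CPM in Ctrl, 20.5, 22.1 and 24.2 with M0, 25.0, 23.5 and 22.7 with M1, and 21.6, 21.7 and 20.5 with M2. The conditioned groups overlapped one another, apart from M1 and M2, and all exceeded Ctrl. TRIM36 was higher by 1.69 in M0 (SE 0.11, adjusted p = 2.75e-09), 1.79 in M1 (SE 0.11, adjusted p = 6.99e-10) and 1.63 in M2 (SE 0.11, adjusted p = 3.27e-09). TRIM46 (chr1:155173787-155184971, + strand), which bundles microtubules at the start of the axon, was at 14.1, 11.4 and 13.9 CPM in Ctrl, 3.88, 3.54 and 4.21 with M0, 7.84, 5.02 and 7.66 with M1, and 7.70, 6.31 and 6.97 with M2. It was lowest in M0 without overlap and highest in Ctrl. TRIM46 fell by 1.75 in M0 against Ctrl (SE 0.16, adjusted p = 1.9e-07), and it was higher than M0 by 0.82 in M1 (adjusted p = 0.000744) and by 0.85 in M2 (SE 0.17, adjusted p = 0.00301).

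TRIM55 (chr8:66126896-66175487, + strand), known as a ligase of the muscle sarcomere, had the lowest log2 fold change of the tested members in 5 of the 6 comparisons, all but M1 against M2. Its level was 7.88, 8.91 and 9.60 CPM in Ctrl, 0.742, 0.698 and 2.21 with M0, 0.254, 0.320 and 0.409 with M1, and 0.380, 0.426 and 0.465 with M2. All conditioned libraries were below Ctrl, M1 and M2 overlapped, and M0 replicate 3 was about 3 times the other M0 libraries. Its log2 fold change against Ctrl was -2.82 in M0 (SE 0.28, adjusted p = 4.41e-07), -4.73 in M1 (SE 0.33, adjusted p = 4.32e-09) and -4.37 in M2 (SE 0.32, adjusted p = 1.3e-08). Against M0 the log2 fold change was -1.92 in M1 (SE 0.41, adjusted p = 0.00112), the only TRIM gene at least 2-fold lower there (3.2% of all genes), and -1.56 in M2 (SE 0.40, adjusted p = 0.0118). Without M0 replicate 3 these values were -1.12 (adjusted p = 0.00586) and -0.77 (adjusted p = 0.104), so the M2 call rested on that library. On the deposited log2 values limma gave -1.0 and -0.82.

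**Figure D4:**
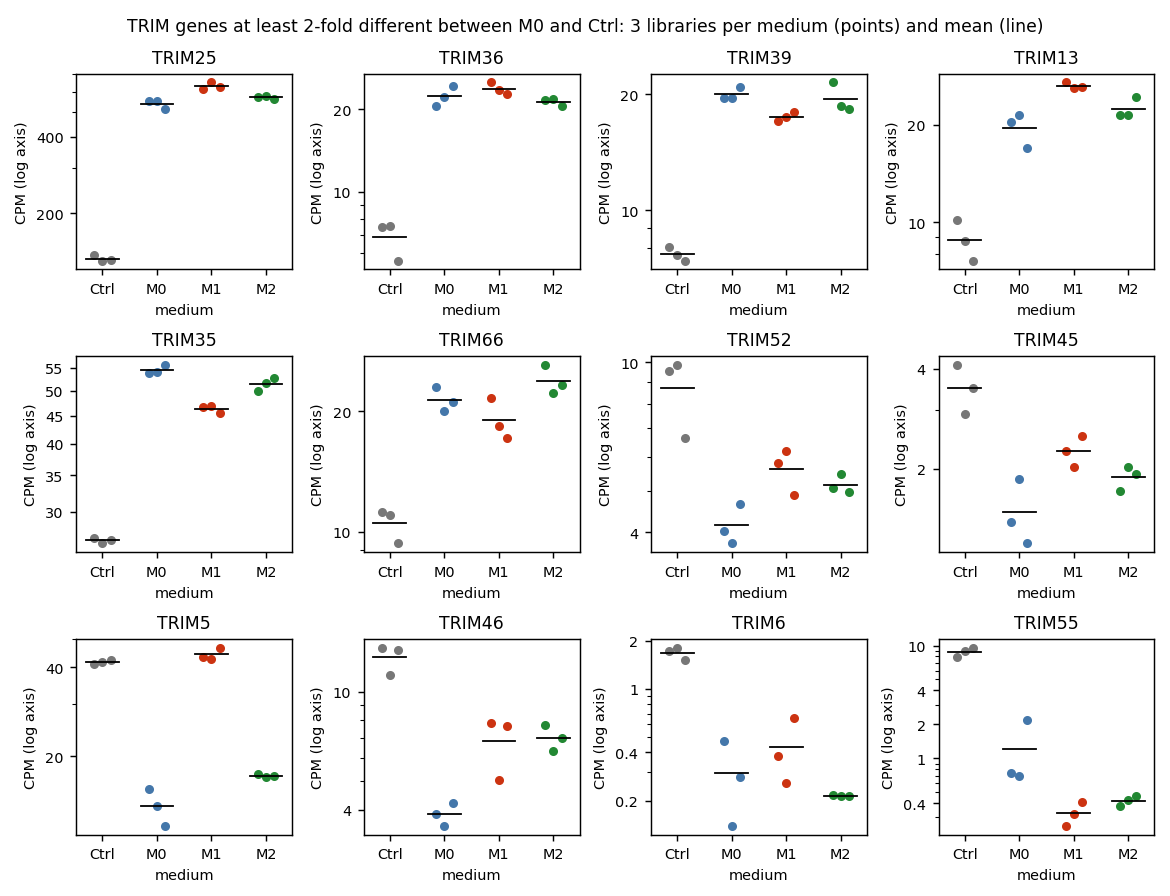
CPM (log axis, a separate scale per gene) of the 12 TRIM genes at least 2-fold different between M0 and Ctrl, by medium, with points for the 3 libraries and a line at their mean. The 6 genes from TRIM25 to TRIM66 were above Ctrl in all 9 conditioned libraries, and TRIM5 was the 1 gene of the lower 6 whose M1 libraries, at 42.8 to 46.7 CPM, stood above Ctrl.

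Regulators of NF-kB and innate signalling outside the interferon-linked list numbered 15, of which 12 were tested. In M1 against M0, 6 were higher (all genes 25.5%) and 1 lower (26.7%), with a median log2 fold change of 0.18, where that of all genes was -0.01. In M0 against Ctrl, 6 were higher (31.1%) and 3 lower (30.6%), and of these TRIM27 and TRIM65 each lost the call under 8 alternatives, left-out libraries included. In M2 against M0 only TRIM65, which ubiquitinates the sensor IFIH1, passed (0.25, SE 0.08, adjusted p = 0.0342), a call lost when any 1 of the 6 libraries was left out (adjusted p = 0.0504 to 0.12). TRIM13 (chr13:49995888-50020481, + strand), a ligase of the endoplasmic reticulum membrane, was at 10.2, 8.74 and 7.63 CPM in Ctrl, 20.4, 21.4 and 17 with M0, 27.0, 26.0 and 26.2 with M1, and 21.4, 21.5 and 24.4 with M2. Conditioned libraries were all above Ctrl and M1 above M0. TRIM13 was higher than Ctrl by 1.14 in M0 (SE 0.11, adjusted p = 4.05e-07), 1.57 in M1 (SE 0.11, adjusted p = 4.9e-09) and 1.33 in M2 (SE 0.11, adjusted p = 4.65e-08). TRIM39 (chr6:30326479-30343729, + strand), which stabilises the apoptosis regulator MOAP1, was at 8.02, 7.67 and 7.41 CPM in Ctrl, 19.6, 19.6 and 20.9 with M0, 17.1, 17.5 and 18.0 with M1, and 21.5, 18.7 and 18.3 with M2. Every conditioned library exceeded 17 CPM and no Ctrl library exceeded 8.02. It was higher than Ctrl by 1.38 in M0 (SE 0.09, adjusted p = 2.66e-09), 1.18 in M1 (adjusted p = 7.34e-09) and 1.34 in M2 (SE 0.09, adjusted p = 2.77e-09).

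TRIM47 (chr17:75874161-75878575, - strand), a RING ligase, was at 8.20, 7.54 and 8.19 CPM in Ctrl, 11.5, 15.1 and 12.3 with M0, 17.2, 15.9 and 21.1 with M1, and 13.1, 13.8 and 14.8 with M2. M1 was above all other groups and Ctrl below them. It was higher in M1 than in Ctrl by 1.18 (adjusted p = 3.49e-07) and than in M0 by 0.49 (adjusted p = 0.00288). TRIM45 (chr1:117111060-117122587, - strand), a repressor of MAP kinase signalling, was at 4.11, 2.91 and 3.5 CPM in Ctrl, 1.38, 1.86 and 1.19 with M0, 2.26, 2.02 and 2.51 with M1, and 1.71, 2.02 and 1.93 with M2. Ctrl stood above all conditioned libraries and M1 above M0. TRIM45 fell by 1.27 in M0 against Ctrl (SE 0.19, adjusted p = 3.24e-05), and M1 exceeded M0 by 0.64 (adjusted p = 0.0139), a call lost without M0 replicate 3 (0.52, adjusted p = 0.0644) or M1 replicate 3 (0.56, adjusted p = 0.0505). TRIM44 (chr11:35662805-35818007, + strand), at 469, 485 and 460 CPM in Ctrl, 489, 449 and 496 with M0, 385, 434 and 378 with M1, and 456, 448 and 453 with M2, was the 1 gene of this list lower in M1 than in M0 (-0.26, SE 0.06, adjusted p = 0.00294). All M1 libraries were below all others.

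The nuclear TIF1 branch of 4 genes was tested in full and had no common direction. TRIM28 (chr19:58544091-58550722, + strand), the corepressor of KRAB zinc finger proteins, was at 834, 741 and 813 CPM in Ctrl, 659, 681 and 720 with M0, 445, 395 and 473 with M1, and 629, 574 and 591 with M2. Ctrl was highest and M1 lowest, with no overlap between any pair of groups. TRIM28 fell by 0.65 in M1 against M0 (SE 0.07, adjusted p = 4.12e-06), by 0.45 in M1 against M2 (SE 0.07, adjusted p = 0.000248) and by 0.86 in M1 against Ctrl (SE 0.07, adjusted p = 4.34e-08). TRIM66 (chr11:8612037-8682694, - strand), a TIF1 relative best known from the testis, was at 11.2, 11.1 and 9.38 CPM in Ctrl, 23.0, 20.02 and 21.1 with M0, 21.6, 18.4 and 17.1 with M1, and 26.1, 22.2 and 23.2 with M2. The conditioned libraries were all above Ctrl, and M1 was below M2 without overlap. It was higher than Ctrl by 1.02 in M0 (adjusted p = 8.82e-07) and 1.18 in M2 (SE 0.11, adjusted p = 1.23e-07). M1 against M2 gave -0.33 (SE 0.10, adjusted p = 0.024), a call lost without M1 replicate 2 (-0.29, adjusted p = 0.0716), M1 replicate 3 (-0.24, adjusted p = 0.117) or M2 replicate 1 (-0.24, adjusted p = 0.143).

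TRIM33, a ligase of TGF-beta signalling, had means of 57.2 CPM in Ctrl, 69.2 with M0, 84.9 with M1, and 77.1 with M2 and was higher in each conditioned medium than in Ctrl. TRIM24, a coactivator of nuclear receptors, had means of 28.3 to 30.3 CPM and passed in none of the 6 comparisons, and TRIM62, a ligase linked to epithelial polarity, was the other of 2 such members. Of 12 partners of TRIM28 in heterochromatin, 2 were higher and 2 lower in M1 against M0 (all genes 25.5% and 26.7%), and 2 were higher and 6 lower in M0 against Ctrl (31.1% and 30.6%). DNMT1, the maintenance DNA methyltransferase, had the lowest fold of these in M1 against M0 (-0.74, SE 0.10, adjusted p = 1.43e-05) and means of 430 CPM in Ctrl, 206 with M0, 123 with M1, and 161 with M2.

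The NHL-repeat branch, TRIM2, TRIM3 and TRIM32, was higher in M1 than in M0 in 3 of 3 tested genes, where 25.5% of all genes were higher, with a median log2 fold change of 0.59 against -0.01 for all genes. TRIM2 (chr4:153152342-153339320, + strand), a neuronal ligase of neurofilament, was at 0.662, 0.636 and 0.876 CPM in Ctrl, 0.540, 0.605 and 0.666 with M0, 0.888, 1.47 and 1.36 with M1, and 0.705, 1.03 and 1.11 with M2. M1 lay above M0 and Ctrl, and Ctrl overlapped M0 and M2. TRIM2 was higher in M1 than in M0 by 1.02 (adjusted p = 0.00491). This rests on 48 reads over M0 and 131 over M1, and the call was lost with a minimum count of 50. TRIM32, a ligase mutated in a limb-girdle muscular dystrophy, was higher by 0.59 in M1 than in M0 (adjusted p = 5.08e-05) and by 0.68 than in M2 (adjusted p = 2.35e-05). TRIM3, a brain ligase, differed by 0.24 in M1 against M0 (adjusted p = 0.0392), and the M0 and M1 libraries overlapped. That call was lost without M0 replicate 1 (0.25, adjusted p = 0.082), M0 replicate 2 (0.19, adjusted p = 0.116), M1 replicate 1 (0.19, adjusted p = 0.14) or M1 replicate 3 (0.26, adjusted p = 0.0549).

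TRIM35 and TRIM52 completed the genes that changed at least 2-fold. TRIM35 (chr8:27284887-27311319, - strand), a ligase that acts on pyruvate kinase, was at 26.8, 26.3 and 26.7 CPM in Ctrl, 53.8, 54.1 and 55.7 with M0, 46.7, 46.9 and 45.5 with M1, and 49.9, 51.7 and 52.8 with M2. M0 was highest and Ctrl lowest, and no pair of groups overlapped. TRIM35 was higher by 1.04 in M0 than in Ctrl (SE 0.06, adjusted p = 7.33e-10), and M1 was below M0 by a small margin (-0.23, SE 0.06, adjusted p = 0.00293), a call lost with no filter on low counts (-0.21, adjusted p = 0.0638). TRIM52 (chr5:181254417-181261139, - strand), a short and fast-evolving primate gene, was at 9.52, 9.85 and 6.66 CPM in Ctrl, 4.02, 3.77 and 4.66 with M0, 5.81, 6.21 and 4.88 with M1, and 5.07, 5.46 and 4.97 with M2. All conditioned libraries were below Ctrl, and M0 was below M1 and M2. TRIM52 fell by 1.06 in M0 against Ctrl (adjusted p = 2.54e-05).

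Smaller differences were spread over the rest. TRIM37, a ligase of centrioles and peroxisomes, was higher in M1 by 0.46 than in M0 (adjusted p = 2.06e-05) and by 0.54 than in M2 (adjusted p = 7.12e-06), and M0 and M2 overlapped Ctrl. TRIM23, which carries an ARF-type GTPase domain, was higher by 0.33 in M1 than in M0 (adjusted p = 0.00491). TRIM11, a ligase of protein quality control, was lower in M1 than in M0 (log2 fold change -0.33, SE 0.08, adjusted p = 0.00251). TRIM8, a regulator of NF-kB, was higher than Ctrl by 0.51 in M0, 0.74 in M1 and 0.57 in M2. TRIM68 was higher by 0.86, 0.77 and 0.84 in the same order. TRIM4, a ligase of RIG-I, was higher by 0.50, 0.63 and 0.58. TRIM16, which marks damaged lysosomes, was higher by 0.75, 0.69 and 0.43, and its near-identical relative TRIM16L gave 0.76, 0.61 and 0.73, although reads may be divided between these copies. The TRIM16 call in M2 against Ctrl was lost with no filter on low counts (0.40, adjusted p = 0.0537) and without M2 replicate 1 (0.31, adjusted p = 0.0873). TRIM41, a ligase of protein kinase C, TRIM27, a fusion partner of RET, and TRIM59, a membrane ligase, had log2 fold changes of at most 0.70 in size in every comparison.

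TRIM proteins under other names and the partners of the family were read as separate lists. PML, the organiser of nuclear bodies, had means of 42.7 ± 2.06 CPM in Ctrl, 27.5 ± 1.44 with M0, 84.7 ± 12.9 with M1, and 29.7 ± 1.22 with M2, and was higher in M1 than in M0 by 1.62 (SE 0.10, adjusted p = 3.5e-09). The order of its means, M1, Ctrl, M2 and M0 from high to low, was that of TRIM5, TRIM21 and TRIM26. Among these genes M2 against M0 passed only in TRIM5, and M1 against Ctrl did not pass in TRIM5 or TRIM26. MID1, the microtubule-binding founder of the COS-box branch, had means of 81.5 ± 6.50 CPM in Ctrl, 24.2 ± 2.76 with M0, 16.9 ± 0.278 with M1, and 16.2 ± 0.680 with M2 and fell by 1.75 in M0 against Ctrl (SE 0.09, adjusted p = 1.55e-10). MID2 had 1 read in all. MEFV, the pyrin gene, was not tested and was picked after its values were seen, with no read in Ctrl or M0, 11, 4 and 8 reads with M1, and 1, 0 and 0 with M2.

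Of 17 RNA and DNA sensing partners, 13 were higher (all genes 25.5%) and none lower (26.7%) in M1 against M0, with a median log2 fold change of 0.48. IFIH1, the long double-stranded RNA sensor, led at 4.71 (SE 0.10, adjusted p = 2.44e-14) with means of 9.21 CPM in Ctrl, 12.5 with M0, 330 with M1, and 10.3 with M2. In M2 against M0, 3 of the 17 were higher (12.5%) and 2 lower (12.7%). Of 14 genes listed as E2 ubiquitin-conjugating enzymes, only UBE2L6 was higher in M1 than in M0 (2.84, SE 0.07, adjusted p = 3.41e-14). UBE2L6 is the E2 of the interferon-induced modifier ISG15. Of the same 14 genes 4 were lower, where 25.5% of all genes were higher and 26.7% lower. The lowest was UBE2D2 at -0.33 (SE 0.06, adjusted p = 0.000219).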

How the data were processed

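Per the labels, libraries of MV3 mRNA made with a stranded kit were sequenced in 2 runs as single 50 nt reads, and counts are not given run by run. Per the submitters' processing notes the tools were DESeq2 1.20.0 under R 3.5.0 and R 3.3.3, the aligners STAR 2.5.4b and Bowtie2 2.2.3, Trimmomatic 0.36 and FastQC 0.11.7, with build hg38. Which program counted the reads, with which strand setting and annotation, is not given in the sources used here. Raw read counts per gene were deposited by the authors, and the files of single samples equalled the columns of the joint table in 12 of 12 cases. The authors also deposited variance-stabilized values on a log2 scale, which gave the gene symbols and were otherwise used only in an alternative test.

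Members, lists and motifs were chosen with earlier results of these data known. Coordinates and merged exon lengths came from GENCODE 29 on GRCh38, which matched 66 of 66 identifiers, 60 of them with their version. Counts of all 12 libraries were fitted in 1 model of group means with edgeR 4.0.16 in R 4.3.3 (TMM scaling, filterByExpr with minimum count 10 and minimum total 15, quasi-likelihood F test, Benjamini-Hochberg adjustment over 14088 genes, threshold 0.05). Fold changes are on the log2 scale, and SE is the size of the log2 fold change divided by the square root of F. CPM used TMM-scaled library sizes and has n = 3 per group. The scripts were tested on simulated data. No pair of replicates agreed within sampling noise (chi-square over degrees of freedom 3.18 to 28.1).

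Values in every library are given for members called with at least a 2-fold change and groups that did not overlap, for the interferon-linked members tested and for the 3 members highest per kb in Ctrl. In each comparison at most the 5 highest and 5 lowest called members have an SE beside the fold change. Genes of other lists are named as the highest and lowest called, with PML, MID1 and MID2. The other lists were the regulators of NF-kB, TIF1, NHL-repeat, COS-box, autophagy, p53, and primate-expanded and testis groups, TRIM proteins under other names, sensing partners, TRIM28 partners, E2 enzymes and 3 marker lists. Alternatives were DESeq2 1.42.0, its size factors or upper-quartile scaling in edgeR, no filter, a minimum count of 50, limma 3.58.1 on the deposited log2 values, only the groups compared, a replicate block, and each library left out.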

Additional observations from a re-analysis of the deposited data

How the results depend on the processing

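Of 857 values of the members listed as highest or lowest, recomputed under an alternative, 807 kept their direction and their side of the threshold, 50 kept the direction but no longer passed, and 0 reversed. Over all calls of TRIM genes, TRIM41 in M1 against M2 was lost under 12 alternatives, and TRIM44 and TRIM59 in M1 against M2, TRIM65 in M2 against M0, and TRIM27, TRIM59 and TRIM65 in M0 against Ctrl under 8 each. With 1 library left out at a time, the number of TRIM genes called was 23 to 25 (26 with all) in M1 against M0, 4 to 7 (8) in M2 against M0, 11 to 17 (17) in M1 against M2, 27 to 28 (31) in M0 against Ctrl, 31 to 32 (32) in M1 against Ctrl, 26 to 28 (28) in M2 against Ctrl and 21 to 28 (28) among the conditioned media. In M2 against M0 leaving out M0 replicate 3 gave 4, leaving out M2 replicate 2 gave 5, leaving out M2 replicate 3 gave 4, and it was 2 with M0 replicate 3 and M2 replicate 2 both left out, when 3.6% of all genes passed. In M1 against M2 it was 11 without M2 replicate 1. The other alternatives gave 24 to 26, 7 to 11, 14 to 20, 26 to 31, 30 to 32, 26 to 28 and 22 to 29 in the same order. Whether replicate numbers pair the libraries is not settled. Same-numbered libraries had correlations of -0.0764 to 0.176 in their deviations over 18 pairs, and differently numbered libraries were not compared. With the replicate block, 26, 9, 17, 30, 32, 28 and 26 TRIM genes were called in that order. The share of all genes called moved with the setting too, in M2 against M0 from 25.2% with all libraries to 11.1% without M0 replicate 3. These ranges of TRIM counts therefore do not measure how stable the family is beside other genes. Depth limits TRIM2, TRIM6, TRIM22 outside M1, TRIM55 in conditioned media and the 27 members not tested.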

Other observations

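TRIML2, RNF207 and the autophagy-linked and p53-linked members were not described above. TRIML2, a relative without the RING finger, had means of 1.24 ± 0.140 CPM in Ctrl, 0.201 ± 0.108 in M0, 0.548 ± 0.142 in M1 and 0.277 ± 0.125 in M2, so its mean was highest in Ctrl and next highest in M1, as was that of TRIM6. RNF207, a RING protein of heart muscle with TRIM-type domains, had means of 10.7 ± 3.13 CPM in Ctrl, 5.02 ± 0.633 in M0, 3.11 ± 0.472 in M1 and 4.34 ± 0.467 in M2. Both were chosen after their values were seen. Of the 3 tested autophagy, lysosome and membrane members, TRIM13 and TRIM16 were higher (all genes 31.1%) and TRIM59 lower (30.6%) in M0 against Ctrl. The TRIM59 libraries of M0 and Ctrl overlapped, and its call (-0.45, adjusted p = 0.0445) was lost under 8 alternatives, 4 of them with a single library left out (Ctrl replicate 1 or 2, M0 replicate 1 or 2; adjusted p = 0.0808 to 0.141) and 1 with the replicate block (-0.46, adjusted p = 0.0532). Of the 4 tested members linked to p53, DNA damage and proliferation, none was higher and TRIM28 and TRIM59 were lower in M0 against Ctrl (all genes 30.6%) and in M2 against Ctrl (32.4%). The M0 call of TRIM28 was lost without M0 replicate 1 (-0.20, adjusted p = 0.0642).

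TRIM22 lies on the opposite strand within the span of the TRIM5 gene. Its levels stayed near the floor in Ctrl, M0 and M2, while TRIM5 was at 41.0 to 42.5 CPM in Ctrl and at 11.7 to 17.5 CPM in M0 and M2. Of the members, 5 had reads only in M2 replicate 2, the library in which 3759 genes were read that no other covered. They were TRIM15, TRIM31 and TRIM48 with 1 read each, TRIM61 with 2 and TRIM67 with 3, named after their values were seen, and none of them was tested.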
